A study of Mus musculus with 12 samples.

Results

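Phase II conjugation enzymes attach a water-soluble group to drugs, hormones, bile acids, haem breakdown products and reactive lipid products, which can then leave the liver in bile or blood. The genes described here are those whose name in the deposited table begins with Gst, Mgst, Ugt or Sult followed by a letter or digit, so membership was set by name alone and not by any measured value. They carried 164 of the 36387 H3K27ac regions of the table and 36 of its 11240 gene names. Gst, the soluble glutathione S-transferases, had 55 regions at 15 genes. Mgst, the membrane-bound glutathione S-transferases, had 11 regions at 2 genes. Ugt, the UDP-glycosyltransferases, had 69 regions at 10 genes. Sult, the cytosolic sulfotransferases, had 29 regions at 9 genes. A region far from any start site bears the name of the nearest gene, and whether it serves that gene was not measured.

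H3K27ac, acetylation of lysine 27 of histone H3, marks active promoters and enhancers and was measured here by chromatin immunoprecipitation and sequencing (ChIP-seq) of whole mouse liver. The Cox10-/- group held 3 H3K27ac libraries, from mice with a floxed conditional Cox10 allele that had been given AAV8-Cre, a virus carrying Cre recombinase, by retroorbital injection. The wild-type group held 3 H3K27ac libraries, from mice that carried the same floxed allele and had been given AAV8-GFP by the same route. All mice ate standard chow, lost part of the liver in a 70% partial hepatectomy 4 weeks after the virus, and gave the regrowing liver on day 2. Cox10 makes a precursor of heme A, the cofactor of cytochrome c oxidase in the respiratory chain. The labels name no age, sex or strain and no promoter in front of Cre, and in general cells that an AAV8 vector does not enter keep the floxed gene. They also do not tie each replicate to its own animal, so the p-values measure only the spread between these libraries, which may be technical.

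As background, the 4 families work on different donors. Gst and Mgst enzymes join the tripeptide glutathione to electrophiles. Ugt enzymes of the endoplasmic reticulum transfer a sugar, mostly glucuronic acid, to hydroxyl and carboxyl groups. Sult enzymes transfer sulfate from the activated donor PAPS to phenols, steroids and bile acids. Hepatocytes carry high levels of many of them, and many of the genes stand in clusters of close copies, as in the Ugt1a cluster, where separate first exons are spliced to shared later exons.

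Values are normalised reads per region as the authors deposited them, and differences are Cox10-/- over wild-type on the log2(value + 1) scale with the standard error (SE) of the limma fit. A region was called when limma's adjusted p, with Benjamini-Hochberg adjustment over all regions, was under 0.05. On the deposited scale the median region of the whole table had a log2 difference of -1.04. Results are therefore given a second time relative to the median region, after each library's own median was subtracted, which moved every difference up by 1.05 and is also called the centred scale. The libraries held 3302556, 3385453 and 3282878 reads in regions in Cox10-/- and 4138459, 3897454 and 4187377 in wild-type. At Cox10 itself the only region lay in intron 5 of 6, away from the promoter, and held 60.3, 46.0 and 65.9 normalised reads in the Cox10-/- libraries, against 14.6, 17.8 and 12.8 in the wild-type libraries. A region of acetylation does not measure the deletion, so this value does not check the labels.

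Markers of liver cell types were counted at their promoters. Of 10 hepatocyte markers, 9 had a promoter region, and their summed level was 1590 to 1834 normalised reads in Cox10-/- libraries, against 5325 to 5633 in wild-type libraries. All 9 were lower on the deposited scale, where 93.8% of all genes with a promoter region were lower. Relative to the median region 8 of them were lower, against 15.4% of all such genes. Of 13 Kupffer cell and macrophage markers, 2 had a promoter region, Cd68 and Cd14, with summed levels of 317 to 382 in Cox10-/- and 173 to 193 in wild-type. Cd14 was higher (313.6 ± 28.3 in Cox10-/- and 140.4 ± 1.26 in wild-type, SD, n = 3 each), while Cd68, with 38.4 ± 4.42 in Cox10-/- and 41.7 ± 10.5 in wild-type, was not called on the deposited scale. Of 12 endothelial markers Stab1 had one, of 13 blood cell markers Klf1, and of 12 stellate and fibroblast markers none. Sox9, a biliary marker, also had one. In bulk tissue, fewer cells of a type and less acetylation per cell cannot be told apart, and the part that these markers' differences play in the results for the conjugation genes was not tested.

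Promoter letters are shown for 7 start sites on which the results below turn. The nearest region was called higher than the median region at Gstm1, Gstp1 and Ugt1a6a, and lower at Ugt1a9, Ugt2a3 and Sult2a8. At Mgst1 the nearest region, 30 bases away, was not called relative to the median region. A region 39 bases from that start on the other side was called higher. At Ugt1a6a a region 149 bases away on the other side was not called relative to the median region. Each run is the 250 bases upstream of a RefSeq start in GRCm38.p6, the assembly also known as mm10, written 5′ to 3′ on the gene's own strand. Capitals mark matches, on either strand, to any of the 4 motifs searched. The letters TATAAA stand for the core of the TATA box, near which transcription often begins. The pattern TGACNNNGC is the core of the antioxidant response element, which NRF2 and small MAF proteins bind. The core of the element bound by the Ah receptor and its partner ARNT is GCGTG. The letters GTTAAT are 1 arm of the palindrome that the hepatocyte factor HNF1 binds. Matches to different motifs did not overlap in the windows printed.
Gstm1, chr3:108017819-108018068, minus strand: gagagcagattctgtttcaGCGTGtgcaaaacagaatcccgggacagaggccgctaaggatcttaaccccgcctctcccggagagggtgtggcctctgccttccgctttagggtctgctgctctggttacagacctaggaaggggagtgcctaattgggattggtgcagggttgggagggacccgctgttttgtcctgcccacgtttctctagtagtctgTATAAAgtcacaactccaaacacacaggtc
Gstp1, chr19:4037913-4038162, minus strand: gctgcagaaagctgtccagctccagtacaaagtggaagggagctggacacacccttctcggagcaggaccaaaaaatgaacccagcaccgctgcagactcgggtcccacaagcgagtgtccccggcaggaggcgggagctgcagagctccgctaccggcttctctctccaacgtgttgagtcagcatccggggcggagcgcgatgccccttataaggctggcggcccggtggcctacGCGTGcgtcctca
Mgst1, chr6:138140277-138140526, plus strand: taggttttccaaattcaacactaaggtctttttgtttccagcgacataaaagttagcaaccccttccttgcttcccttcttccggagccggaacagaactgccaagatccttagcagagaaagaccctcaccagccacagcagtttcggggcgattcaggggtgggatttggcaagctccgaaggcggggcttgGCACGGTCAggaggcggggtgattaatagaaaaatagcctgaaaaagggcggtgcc
Ugt1a6a, chr1:88134559-88134808, plus strand: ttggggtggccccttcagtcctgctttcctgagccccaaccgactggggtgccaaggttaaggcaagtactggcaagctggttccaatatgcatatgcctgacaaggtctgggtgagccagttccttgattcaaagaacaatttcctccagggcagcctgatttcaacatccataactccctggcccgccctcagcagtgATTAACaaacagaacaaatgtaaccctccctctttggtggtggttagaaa
Ugt1a9, chr1:88070529-88070778, plus strand: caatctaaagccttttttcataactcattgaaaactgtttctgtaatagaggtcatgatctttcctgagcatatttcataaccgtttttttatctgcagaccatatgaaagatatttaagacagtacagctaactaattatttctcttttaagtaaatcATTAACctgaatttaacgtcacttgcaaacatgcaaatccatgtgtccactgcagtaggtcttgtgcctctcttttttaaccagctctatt
Ugt2a3, chr5:87337196-87337445, minus strand: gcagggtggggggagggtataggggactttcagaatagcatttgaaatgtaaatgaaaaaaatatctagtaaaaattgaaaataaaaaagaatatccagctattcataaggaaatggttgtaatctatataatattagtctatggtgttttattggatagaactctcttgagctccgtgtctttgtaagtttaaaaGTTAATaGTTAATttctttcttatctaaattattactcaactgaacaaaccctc
Sult2a8, chr7:14438552-14438801, minus strand: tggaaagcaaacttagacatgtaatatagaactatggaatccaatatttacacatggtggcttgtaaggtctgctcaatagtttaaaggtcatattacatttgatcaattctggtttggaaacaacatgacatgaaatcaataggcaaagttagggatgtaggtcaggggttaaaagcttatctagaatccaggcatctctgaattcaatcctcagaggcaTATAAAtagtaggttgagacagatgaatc

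The windows of the families differed in base composition. RefSeq held windows for 32 of the 36 genes, 41 windows in all. The median GC content was 56% in 19 Gst windows, 51.6% in 3 Mgst windows, 33.2% in 9 Ugt windows and 42.8% in 10 Sult windows, against 52.4% over all 32851 promoter windows of the table. The counted Ugt windows ran from 30.4% to 44% and the Gst windows from 42% to 66.4%. Ugt1a starts other than Ugt1a10 were not counted, since their names are not in the deposited table. Of their windows printed above, that of Ugt1a6a had 51.2%, inside the Gst range, and that of Ugt1a9 33.2%.

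Motif matches were few. The Ah receptor core stood in 6 of 19 Gst, 1 of 3 Mgst, 0 of 9 Ugt and 3 of 10 Sult windows, against 28.2% of all windows. The HNF1 arm stood in 3 of 9 Ugt windows (those named Ugt1a10, Ugt2a3 and Ugt3a1), 2 of 10 Sult windows and 1 of 19 Gst windows, against 6.43% of all windows. Ugt1a6a and Ugt1a9, whose printed windows also hold it, are not gene names of the deposited table and were not counted. The same holds for Ugt1a5 and Ugt1a8, whose windows hold the Ah receptor core. The TATA box core was present in 5 of the 41 windows, against 12.4% of all, and the antioxidant response core in 2, at Gsta3 and Mgst1, against 10.2% of all. A match is a string of letters and does not show binding.

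Acetylation at the 4 families fell on the deposited scale. By the median over their regions, Ugt and Sult fell further than the median region while Gst and Mgst did not. Of the 164 regions, 150 were lower, 6 higher and 8 not called on the deposited scale, where 87.2% of all regions were lower and 4.46% higher. Relative to the median region 71 were lower, 38 higher and 55 not called, where 32.4% of all regions were lower and 33.6% higher. In 149 regions every Cox10-/- library lay below every wild-type library, a pattern of 86.4% of all regions, and in 6 every Cox10-/- library lay above, a pattern of 4.44%. Summed over all members, the Cox10-/- libraries held 9935 ± 701 normalised reads and the wild-type libraries 23350 ± 347 (SD, n = 3 each). That sum was 42.6% of wild-type, against 49.6% for all regions of the table.

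Sult lost the most by its sum. The 29 Sult regions held 1502, 1499.5 and 1302 normalised reads in Cox10-/- libraries, against 4159, 4165 and 3971 in wild-type libraries, 35.0% of the wild-type mean. The 69 Ugt regions held 3687, 3605 and 3141 in Cox10-/-, against 8728, 8294 and 8365 in wild-type, or 41.1%. The 55 Gst regions held 4277, 4114 and 3793 in Cox10-/-, against 8815, 8756 and 8960 in wild-type, or 45.9%. The 11 Mgst regions held 1009.6, 968 and 908 in Cox10-/-, against 2034, 1849 and 1956 in wild-type, or 49.4%. In each family the highest Cox10-/- library stayed below the lowest wild-type library.

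Each family was also counted as a share of each library's own reads in regions, which does not depend on the size factors. The order of the families was the same. Dividing by a library's total scales all 4 families alike, so that order largely follows from the sums above and is not separate support. Per 100000 normalised reads in regions, Sult took 53.6 ± 1.28 in Cox10-/- and 75.9 ± 1.94 in wild-type (SD, n = 3 each). Ugt took 129.9 ± 3.12 in Cox10-/- and 156.7 ± 1.62 in wild-type. Gst took 151.8 ± 1.09 in Cox10-/- and 163.8 ± 3.65 in wild-type. These 3 families' libraries did not overlap between the groups. Mgst took 36.0, 35.4 and 36.5 in the Cox10-/- libraries, against 37.0, 34.6 and 36.5 in the wild-type libraries, and there the groups overlapped.

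Sult and Ugt also had the lower medians over regions. The median log2 difference was -1.51 for Sult, -1.48 for Ugt, -1.04 for Mgst and -1.04 for Gst, against -1.04 for all regions. Centred on the median region, these medians were -0.45, -0.43, 0.01 and 0.01. On the deposited scale 27 Sult regions were lower and 2 higher, 61 Ugt regions were lower, 3 higher and 5 not called, all 11 Mgst regions were lower, and 51 Gst regions were lower, 1 higher and 3 not called. Relative to the median region, Sult had 18 lower, 2 higher and 9 not called, Ugt had 34, 13 and 22, Mgst had 3, 2 and 6, and Gst had 16, 21 and 18. Regions of a family are not replicates, and these counts and medians are a description without a test between families.

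**Figure D1:**
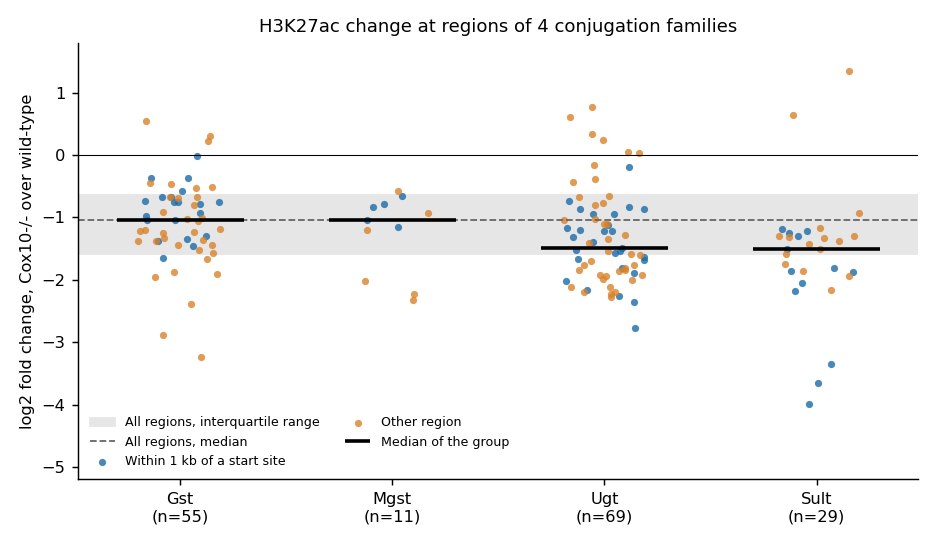
Each point is a region of Gst (55), Mgst (11), Ugt (69) or Sult (29), placed by its log2 difference, Cox10-/- over wild-type, on the deposited scale, with regions within 1 kb of a start site in blue and other regions in orange. Black bars are family medians, the dashed line is the median of all regions (-1.04) and the grey band their middle 50%. Gst and Mgst medians (-1.04 each) sit on the dashed line, which is 0.01 relative to the median region, and Ugt (-1.48) and Sult (-1.51) sit below it.

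At promoters the families stood further apart. Promoter regions, those the deposited annotation sets within 1 kb of a start, had a median log2 difference of -0.77 in Gst (20 regions), -0.84 in Mgst (5), -1.44 in Ugt (28) and -1.86 in Sult (13), against -0.87 for all promoter regions. After centring on the median region these were 0.28, 0.21, -0.39 and -0.80, against 0.19. Within Sult, the 7 promoter regions of Sult2 genes had a centred median of -1.13 and all were lower. The 6 of Sult1 genes had a centred median of -0.22, with 2 lower and 4 not called. Of the 66 promoter regions of the 4 families 64 were lower on the deposited scale, where 92.3% of all promoter regions were lower and 1.26% higher. Relative to the median region 4 Gst promoter regions were lower and 10 higher, 1 Mgst promoter region was higher, 14 Ugt promoter regions were lower and 1 higher, and 9 of 13 Sult promoter regions were lower and the other 4 not called, where 18.9% of all promoter regions were lower and 42.2% higher. Among the 98 other regions, 86 fell below wild-type and 6 stood above it on the deposited scale, against 83.2% and 6.96% of all other regions, and 44 were lower and 26 higher relative to the median region, against 43.1% and 26.9%. Away from promoters the medians relative to the median region were -0.17 in Gst, -0.55 in Mgst, -0.49 in Ugt and -0.30 in Sult, against -0.23 for all such regions.

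Each gene was then described by 1 region, the promoter region with the most reads on average, or its strongest region of any kind where the deposited annotation placed none within 1 kb of a start. By that annotation a promoter region existed for 30 genes and none for 6, which were Gstm3, Gstp2, Gstz1, Ugt2b38, Sult1e1 and Sult2b1. RefSeq has a further Gstz1 start with 3 Gstz1 regions within 1 kb of it, which the deposited annotation places in an intron and exons. At 29 genes every region was lower on the deposited scale, where 87.2% of all regions were lower. Relative to the median region, 17 genes had regions called lower and none higher, 10 had regions called higher and none lower, 6 had both and 3 had no call. Over all regions 32.4% were lower and 33.6% higher on that scale. These counts by gene were not made for all genes of the table, so they are not read as a trait of the families.

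**Figure D2:**
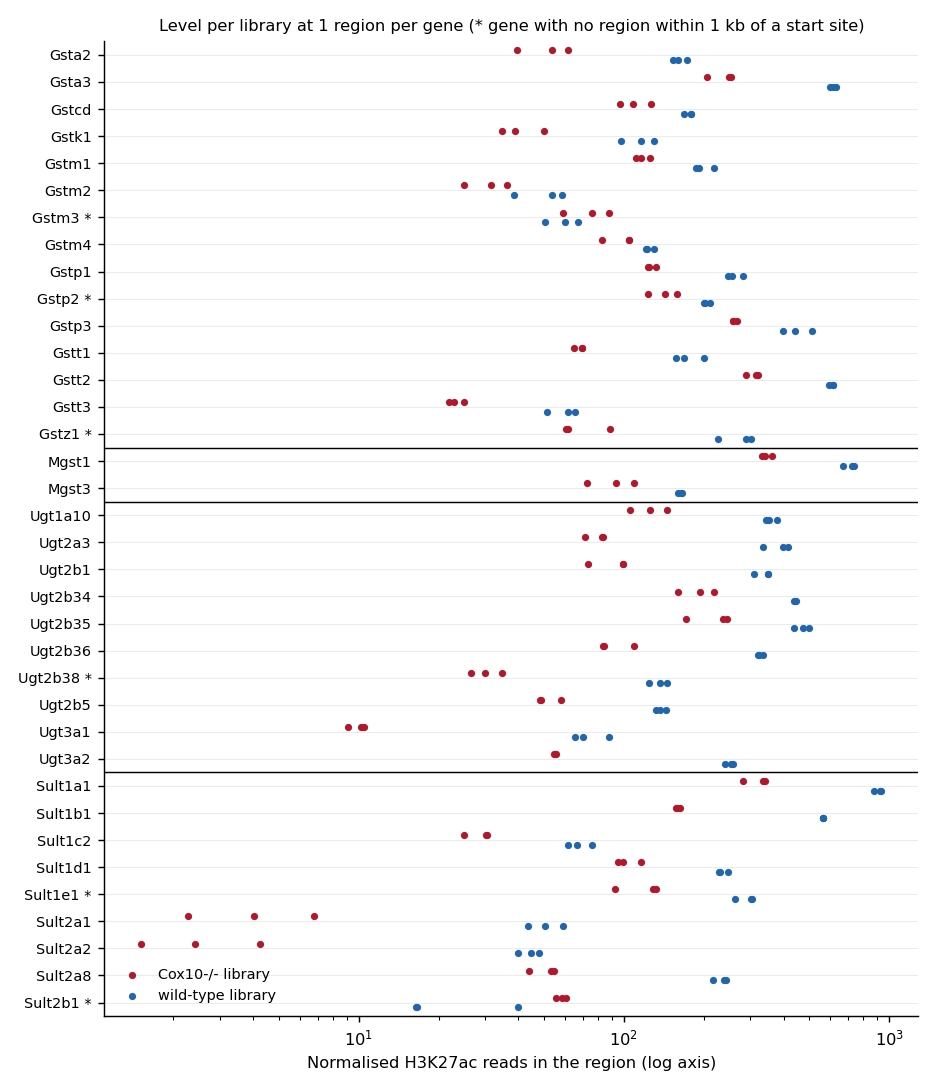
Rows are the 36 genes, grouped as Gst, Mgst, Ugt and Sult, and points are the normalised H3K27ac reads of 1 region per gene on a log axis, with the 3 Cox10-/- libraries in red above the 3 wild-type libraries in blue. On this deposited scale the Cox10-/- points lie left of the wild-type points at every gene shown except Gstm3, where they overlap, and Sult2b1, where they lie right. The widest gaps are at Sult2a1 and Sult2a2.

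Per kilobase of region, the highest representative level in Cox10-/- libraries was that of Gstcd (210.2 normalised reads per kb, against 334 in wild-type), which encodes a protein with a glutathione transferase C-terminal domain. In wild-type libraries it was that of Sult1a1 (135.9 in Cox10-/-, against 387.6 in wild-type). Mgst1 had 172.3 per kb in Cox10-/- and 354.6 in wild-type. The lowest in Cox10-/- were Sult2a2, with 13.1 per kb against 211.4 in wild-type, and Sult2a1, with 18.2 against 212.4. In wild-type the lowest was Sult2b1, with 112.4 in Cox10-/- against 46.9.

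Among the soluble transferases the classes differed. Alpha class enzymes, which reduce lipid peroxides and conjugate their aldehydes, were represented by Gsta3 and Gsta2. Gsta3, which in mice detoxifies the epoxide of aflatoxin B1, held 248, 253 and 205 normalised reads at its main promoter region (chromosome 1, 21240661 to 21242909, mm10) in Cox10-/- libraries, against 600, 630 and 612 in wild-type libraries. Its log2 difference was -1.38 (SE 0.09, limma adjusted p = 4.2e-37), or -0.33 relative to the median region. Gsta2 held 53.5, 61.3 and 39.4 in Cox10-/-, against 173, 160.2 and 153 in wild-type, with a log2 difference of -1.66 (SE 0.14), or -0.61 relative to the median region. Both of these regions were called lower on both scales, and no library of either group entered the range of the other. The deposited annotation sets this Gsta2 region within 1 kb of a start, but it lies 7864 bases from the RefSeq Gsta2 start. A weaker Gsta2 region, 790 bases from the RefSeq start, held 34.1 ± 3.30 normalised reads in Cox10-/- and 35.4 ± 9.39 in wild-type (SD, n = 3 each). That weaker region showed no call on the deposited scale (log2 difference -0.02, SE 0.23). Relative to the median region it was called higher (1.03), as were the remaining Gsta2 region (0.54) and a Gsta3 promoter region 227 bases from the start (0.31). Of all 8 alpha regions, 2 were lower, 3 higher and 3 not called on that scale.

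The mu class stood above the median region. Its 12 regions, at Gstm1 to Gstm4, had a median log2 difference of -0.62, or 0.43 relative to the median region, and on that scale 9 were higher and 3 not called. Summed, they held 850.2 ± 53.2 normalised reads in Cox10-/- and 1232 ± 31.5 in wild-type (SD, n = 3 each), 69.0% of wild-type. At the Gstm1 start (chromosome 3, 108017154 to 108017818), whose upstream letters are given above, the Cox10-/- libraries held 116, 126 and 111 reads, against 219.5, 186 and 192 in wild-type. Gstm1, the main mu class enzyme of mouse liver, was thus lower in every Cox10-/- library (log2 difference -0.75, SE 0.12), though 0.30 above the median region. Gstm4 held 104.5, 104.1 and 82.6 in Cox10-/-, against 122, 130.1 and 121 in wild-type, with a log2 difference of -0.36 (SE 0.13) and 0.69 relative to the median region. The deposited-scale call of Gstm4 was lost without Cox10-/- replicate 3 (log2 difference -0.25, limma adjusted p = 0.0645). Gstm2 fell by 0.67 on the log2 scale (SE 0.21) and was not called relative to the median region.

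The 2 highest log2 differences of the mu class were at Gstm3. An exonic region of Gstm3 on chromosome 3 from 107964239 to 107964692 held 61.2, 64.6 and 57.6 normalised reads in Cox10-/- libraries, against 33.3, 41.1 and 52.4 in wild-type libraries. All Cox10-/- libraries lay above all wild-type libraries there, with a log2 difference of 0.54 (SE 0.18, limma adjusted p = 0.0038), and 1.60 relative to the median region. Without wild-type replicate 1 the deposited-scale difference was 0.39 with a limma adjusted p of 0.0523. Its highest region, in an intron, overlapped between groups with 87.5, 75.9 and 59.1 in Cox10-/- and 50.6, 67.1 and 60.1 in wild-type. That region was not called on the deposited scale (log2 difference 0.31, SE 0.16) and was called higher there without Cox10-/- replicate 3 (0.46, limma adjusted p = 0.0105) or wild-type replicate 2 (0.40, limma adjusted p = 0.0292). Gstm genes are close copies, so reads that fit more than 1 of them may have been placed on either.

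The pi class spanned log2 differences from -3.24 to 0.23 within a single cluster. Gstp1, Gstp2 and Gstp3 share a stretch of chromosome 19 from 4024747 to 4068297, with 15 regions. Their median log2 difference was -1.04, or 0.01 relative to the median region, with 6 lower, 6 higher and 3 not called on the second scale. At the Gstp1 promoter region of highest signal, 931 bases from the start whose window is printed above, the Cox10-/- libraries held 124, 132 and 123.5 normalised reads, against 255, 281 and 247 in wild-type, a log2 difference of -1.04 (SE 0.11) and 0.01 relative to the median region. The pair of Gstp1 regions at the printed window lay 0.30 and 0.68 above the median region, both called higher there. Gstp3 held 266, 257.5 and 257.6 in Cox10-/-, against 442, 397 and 514 in wild-type, a log2 difference of -0.78 (SE 0.09) and 0.27 relative to the median region. At Gstp2, a close copy of Gstp1, the highest region held 142 ± 17.7 in Cox10-/- and 205 ± 5.53 in wild-type (SD, n = 3 each).

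At 12683 bases from the Gstp1 start, a distal region from 4024747 to 4025229 behaved unlike the promoter. It held 12.8, 9.69 and 7.58 normalised reads in Cox10-/- libraries, against 89.1, 109.6 and 104.8 in wild-type libraries. These values came from 37 reads in all Cox10-/- libraries and 229 in all wild-type libraries. The log2 difference was -3.24 (SE 0.23, limma adjusted p = 5.5e-31), or -2.18 relative to the median region. Toward the start the loss shrank, to -1.52 and -1.37 at the next regions, -1.04 and -0.75 at the promoter, and -0.37 at the region just upstream of the start, which held 53.2 ± 3.81 in Cox10-/- and 69.3 ± 7.21 in wild-type (SD, n = 3 each). The regions between the ends of this series were chosen for description after their values were seen.

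Theta, zeta and kappa enzymes were lower throughout on the deposited scale, and theta regions stayed near the median region. All 13 theta regions, at Gstt1, Gstt2 and Gstt3, were lower on the deposited scale with a median of -1.24, or -0.19 relative to the median region, where 3 were lower, 1 higher and 9 not called. Gstt2 held 321, 315 and 289 normalised reads in Cox10-/-, against 616, 594 and 616 in wild-type (log2 difference -0.98, SE 0.08, and 0.07 relative to the median region). Gstt1 fell by 1.35 on the log2 scale (SE 0.13) and Gstt3 by 1.30 (SE 0.21). Kappa class Gstk1, an enzyme of mitochondria and peroxisomes, held 50.1, 38.7 and 34.9 in its only region in Cox10-/-, against 97.1, 116 and 130.4 in wild-type (log2 difference -1.46, SE 0.16). Its call relative to the median region (-0.41) was lost without Cox10-/- replicate 2 or 3 or without wild-type replicate 2 or 3 (-0.36, -0.35, -0.38 and -0.31). Gstcd fell by 0.67 on the log2 scale (SE 0.12), 0.38 above the median region.

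Gstz1 kept the smallest share of its summed wild-type signal among the Gst classes. It encodes maleylacetoacetate isomerase, which works in tyrosine breakdown and carries the zeta class fold. Its 4 regions on chromosome 12, in introns and exons by the deposited annotation, held 252, 199 and 183 normalised reads in Cox10-/- libraries, against 1044, 1005 and 1031 in wild-type libraries, 20.6% of the wild-type mean. All 4 were lower on both scales, with a median log2 difference of -2.17, or -1.12 relative to the median region. The lowest, an exonic region from 87158338 to 87159278, held 38.9 ± 7.04 in Cox10-/- and 292 ± 7.47 in wild-type (SD, n = 3 each), a log2 difference of -2.89 (SE 0.13).

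**Figure D3:**
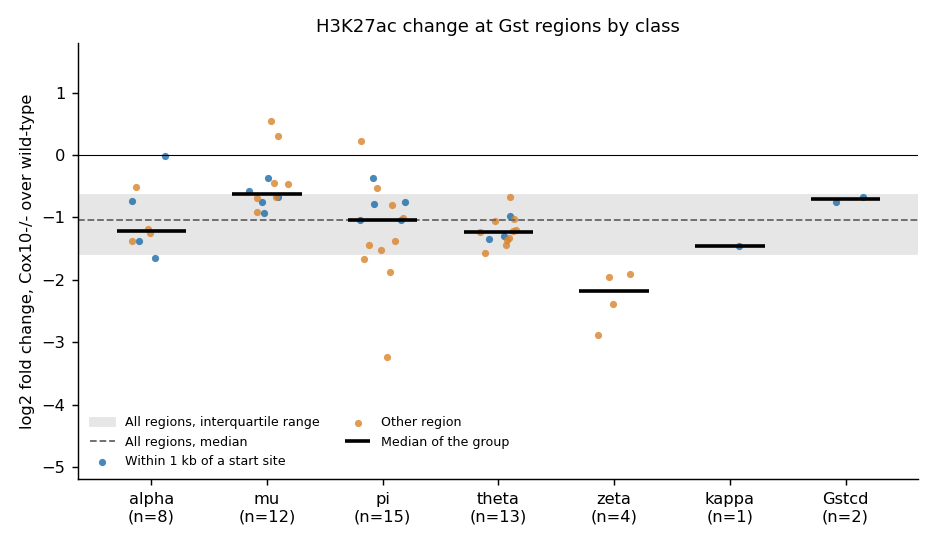
Points are Gst regions by enzyme class, with the log2 difference, Cox10-/- over wild-type, on the deposited scale on the vertical axis, promoter regions in blue and other regions in orange, class medians as black bars and the median of all regions dashed. The mu median (-0.62) lies above the dashed line, so it is positive (0.43) relative to the median region, and the zeta median (-2.17) lies below it. The pi class spans from -3.24 to 0.23.

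Both membrane-bound transferases were lower on the deposited scale, and their representative promoter regions were not called relative to the median region. Mgst1, an abundant enzyme of the endoplasmic reticulum and outer mitochondrial membrane, held 342, 362 and 331 normalised reads at its highest promoter region (chromosome 6, 138141589 to 138143590) in Cox10-/- libraries, against 740, 667 and 722 in wild-type libraries. That was a log2 difference of -1.04 (SE 0.08), or 0.01 relative to the median region. Another Mgst1 promoter region, 39 bases from the start whose window is printed above, held 221 ± 21.7 in Cox10-/- and 350 ± 9.39 in wild-type (SD, n = 3 each). It fell by 0.66 on the log2 scale (SE 0.095) and lay 0.39 above the median region, where it was called higher. Mgst3, which conjugates and reduces lipid hydroperoxides, held 109, 93.6 and 72.7 in Cox10-/-, against 165, 160.2 and 164 in wild-type (log2 difference -0.84, SE 0.13, and 0.21 relative to the median region). The promoter of Mgst3 was not called relative to the median region, but was called higher there without Cox10-/- replicate 3 (0.31, limma adjusted p = 0.0211).

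Regions far inside Mgst3 fell further than its promoter region. Over its 5 regions the sum was 189.6 ± 17.9 normalised reads in Cox10-/- and 462.5 ± 32.4 in wild-type (SD, n = 3 each). The 3 regions that lie 15390 to 18761 bases from the start, inside the gene, had log2 differences of -2.01, -2.32 and -2.22 and were lower on both scales, while an intronic region closer to the start fell by 0.58 and lay 0.47 above the median region. The deposited annotation places the region at -2.22 in a 5′ UTR and the others of these 3 in introns. This set was singled out after its values were seen.

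Glucuronosyltransferases of the Ugt2 group fell below the median region, apart from a block near Ugt2b35. These enzymes of the endoplasmic reticulum glucuronidate steroids, bile acids and drugs. The 42 Ugt2 regions of chromosome 5 held 2142, 2111 and 1823 normalised reads in Cox10-/- libraries, against 5466, 5147 and 5109 in wild-type libraries. Their median log2 difference was -1.62, or -0.56 relative to the median region, where 25 were lower, 7 higher and 10 not called. All 12 Ugt2 promoter regions fell on the deposited scale, and 8 were lower relative to the median region.

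At single genes the losses ranged widely. Ugt2a3, whose AT-rich upstream window is printed above, held 71.4, 83.1 and 82.6 normalised reads (87335597 to 87337148) in Cox10-/- libraries, against 416, 397 and 335 in wild-type libraries. The log2 difference was -2.26 (SE 0.11, limma adjusted p = 5.5e-51), or -1.21 relative to the median region. Ugt2b1 held 99.4, 99.3 and 73.5 in Cox10-/-, against 349.9, 349.2 and 309 in wild-type (log2 difference -1.89, SE 0.11). Ugt2b36 held 109.6, 83.1 and 84.1 in Cox10-/-, against 319, 334 and 323 in wild-type (log2 difference -1.82, SE 0.11). None of these genes' groups overlapped, and Ugt2b1 and Ugt2b36 also lay below the median region, at -0.84 and -0.77.

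Other Ugt2b genes stood nearer to the median region. Ugt2b34 held 219, 193 and 159.9 in Cox10-/-, against 446, 439.6 and 439.7 in wild-type (log2 difference -1.22, SE 0.09). Ugt2b5 held 57.8, 48.4 and 48.5 in Cox10-/-, against 144, 137 and 132 in wild-type (log2 difference -1.40, SE 0.14). On the centred scale these were -0.17 and -0.35. The first of these calls was lost without any 1 of Cox10-/- replicates 2 and 3 or wild-type replicates 1, 2 and 3 (-0.17, -0.10, -0.17, -0.16 and -0.17), and the second without Cox10-/- replicate 2 or wild-type replicate 1 (-0.29 and -0.33). Ugt2b35 held 237, 244.5 and 171 in Cox10-/-, against 500.2, 438 and 472 in wild-type (log2 difference -1.12, SE 0.09), and at -0.07 was not called relative to the median region. Ugt2b genes are close copies, so reads shared between them may be split uncertainly.

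A pair of stretches of the cluster, described after their values were seen, moved apart. Downstream of Ugt2b35, 25877 to 30361 bases from its start, 6 intergenic regions from 87026737 to 87031623 held 438.7 ± 41.8 normalised reads in Cox10-/- and 392.6 ± 35.8 in wild-type (SD, n = 3 each). On the deposited scale 3 of them were higher, 1 lower and 2 not called, and all 6 were higher relative to the median region. The largest difference was 0.77 (SE 0.21, limma adjusted p = 0.00045), from 87029096 to 87029447, where Cox10-/- libraries held 51.8, 51.7 and 46.2 and wild-type libraries 26.6, 41.1 and 21.7. Another region, from 87031221 to 87031623, had a difference of 0.61 (SE 0.19), which without Cox10-/- replicate 2 was 0.45 with a limma adjusted p of 0.0594.

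Between Ugt2a3 and Ugt2b38 the other stretch, 10 intergenic regions from 87372629 to 87379605, was lower throughout. It held 239.9 ± 34.0 normalised reads in Cox10-/- and 985.7 ± 27.6 in wild-type (SD, n = 3 each). All 10 regions were lower on the deposited scale, with log2 differences from -2.27 to -1.42 and a median of -2.07, and 9 were lower relative to the median region. The representative region of Ugt2b38 lies there and held 34.8, 29.9 and 26.5 in Cox10-/-, against 145, 137 and 124 in wild-type.

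**Figure D4:**
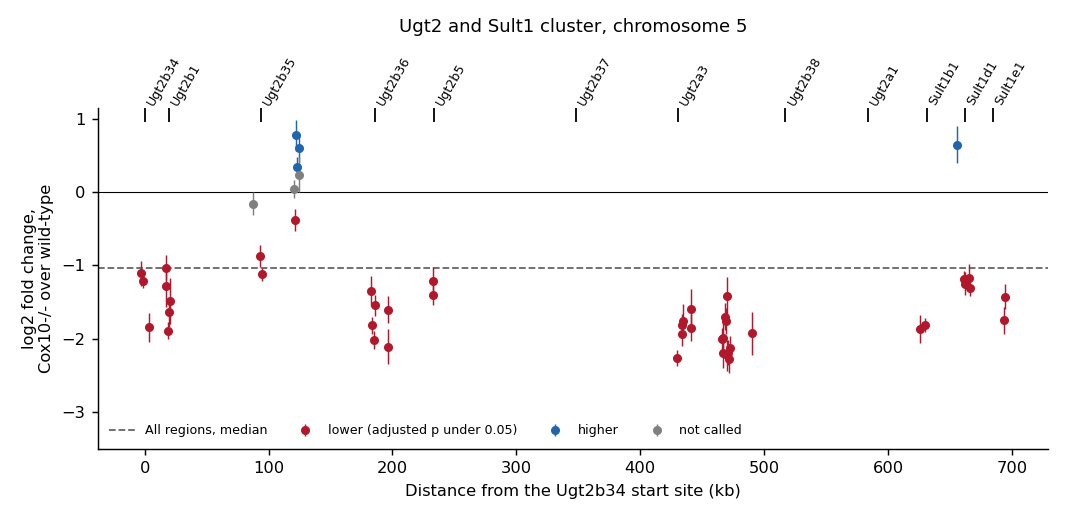
Points are the Ugt2 and Sult1 regions of the chromosome 5 cluster, placed by distance from the Ugt2b34 start in kb and by log2 difference, Cox10-/- over wild-type, on the deposited scale, with SE bars and start sites of RefSeq genes as ticks at the top. Red points were called lower, blue higher and grey neither. The close group of 6 points between the Ugt2b35 and Ugt2b36 ticks, 3 of them blue, 2 grey and 1 red, are the intergenic regions downstream of Ugt2b35, which lie above the dashed median of all regions, and the dense red group between the Ugt2a3 and Ugt2b38 ticks lies below it.

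The Ugt1a cluster on chromosome 1 changed unevenly along its alternative first exons. All of its 24 regions bear the name Ugt1a10 in the table, and here each was set beside the nearest RefSeq start. Over the cluster the sums were 1451, 1397 and 1225 normalised reads in Cox10-/- libraries, against 2839, 2765 and 2859 in wild-type libraries, with 22 regions lower and 2 not called. The median log2 difference was -0.996, or 0.06 relative to the median region. The cluster as a whole was therefore near the median region, unlike Ugt2.

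By start site, the loss was deepest at Ugt1a9 and shallowest at Ugt1a6a. The 2 regions nearest Ugt1a9, a phenol transferase, held 27.8 ± 3.20 normalised reads in Cox10-/- and 129.5 ± 15.4 in wild-type (SD, n = 3 each), with a median log2 difference of -2.15. At the region 42 bases from that start the libraries held 11.9, 12.9 and 9.09 in Cox10-/-, against 75.8, 58.9 and 51.1 in wild-type. The 8 regions nearest Ugt1a6b held 578.2 ± 48.0 in Cox10-/- and 1429 ± 33.8 in wild-type, with a median of -1.03, and the highest of them held 145, 126 and 105 in Cox10-/-, against 343, 353 and 378 in wild-type (log2 difference -1.52, SE 0.10).

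The 7 regions nearest Ugt1a6a held 425.6 ± 41.5 in Cox10-/- and 658.1 ± 20.9 in wild-type (SD, n = 3 each), with a median of -0.77. At the region from 88133910 to 88134664, which covers part of the Ugt1a6a window printed above, the groups overlapped, with 125, 113 and 84.1 in Cox10-/- and 110.4, 126 and 128 in wild-type. It lies 145 bases from the start, was not called on the deposited scale (log2 difference -0.19, SE 0.13) and lay 0.86 above the median region. On the other side of that start, a region 149 bases away held 52.1 ± 12.4 in Cox10-/- and 91.5 ± 3.17 in wild-type. That region was called lower on the deposited scale (-0.83, SE 0.16) and was not called relative to the median region (0.22). An intronic region 12200 bases past the Ugt1a5 start was not called on the deposited scale (0.05, SE 0.13), with 118 ± 11.8 in Cox10-/- and 114 ± 17.5 in wild-type. Ugt1a6a and Ugt1a6b, which handle planar phenols, are near-identical copies, so their reads may be split uncertainly. These start-by-start values were chosen after they were seen.

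**Figure D5:**
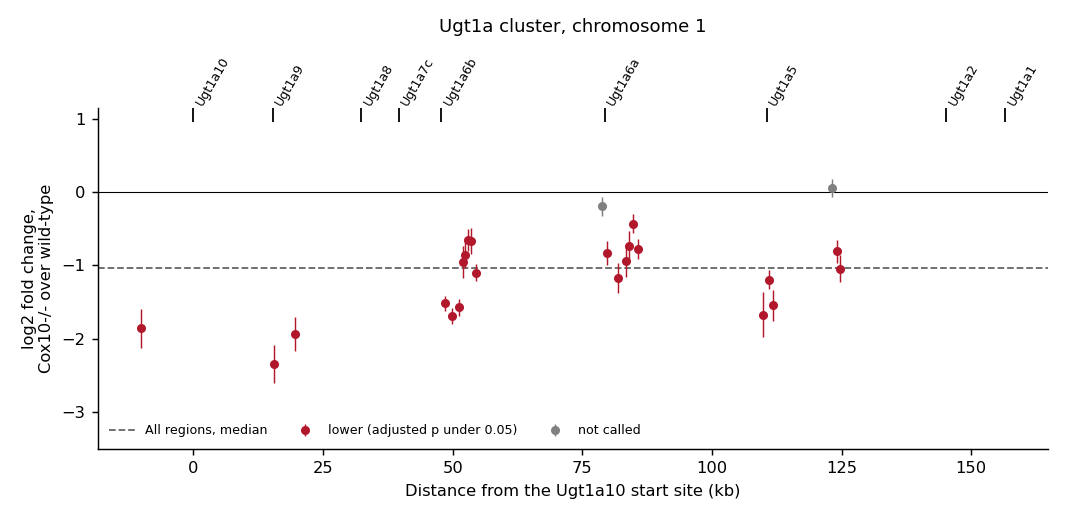
Points are the 24 Ugt1a regions, placed by distance from the Ugt1a10 start in kb and by log2 difference, Cox10-/- over wild-type, on the deposited scale, with SE bars and RefSeq starts as ticks at the top. Red points were called lower and the 2 grey points were not called. The regions at Ugt1a9 lie below the dashed median of all regions (-1.04), and most of those at Ugt1a6a lie above it.

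Ugt3a genes lost more than the Ugt1a cluster. Their human relatives use sugar donors other than UDP-glucuronic acid. Ugt3a1, on chromosome 15, held 10.2, 10.5 and 9.09 normalised reads in Cox10-/- libraries, against 87.8, 69.9 and 65.2 in wild-type libraries (log2 difference -2.77, SE 0.25, and -1.72 relative to the median region). Ugt3a2 held 54.4, 54.9 and 55.3 in Cox10-/-, against 253, 241 and 257 in wild-type (log2 difference -2.17, SE 0.13, and -1.12 relative to the median region). Cox10-/- libraries of these genes were tightly grouped and far below wild-type.

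Sult1 genes, which sulfate phenols, catecholamines and thyroid and sex hormones, fell a little more than the median region. Their 20 regions had a median log2 difference of -1.32, or -0.27 relative to the median region, with 19 lower and 1 higher on the deposited scale and 10 lower, 1 higher and 9 not called on the other. Sult1a1, the main phenol sulfotransferase of liver (chromosome 7, 126674822 to 126677172), held 342, 336 and 281 normalised reads in Cox10-/- libraries, against 935, 920.4 and 877 in wild-type libraries (log2 difference -1.51, SE 0.08, limma adjusted p = 8.0e-47). Sult1b1 held 158, 163 and 158 in Cox10-/-, against 565, 564 and 561 in wild-type (log2 difference -1.81, SE 0.09). On the centred scale these were -0.46 and -0.76, both called lower.

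Among the remaining Sult1 genes, Sult1c2 and the main promoter region of Sult1d1 were not called relative to the median region, and 3 of 4 Sult1e1 regions were lower. Sult1c2 fell by 1.22 on the log2 scale (SE 0.20). At Sult1d1, which in mice sulfates catecholamines, the main promoter region held 99.4, 116 and 94.7 in Cox10-/-, against 230.1, 248 and 229 in wild-type (log2 difference -1.18, SE 0.11, and -0.13 relative to the median region). A weak region 5922 bases from the Sult1d1 start went the other way, with 47.6, 37.1 and 29.6 in Cox10-/- and 29.3, 28.8 and 15.3 in wild-type (log2 difference 0.65, SE 0.25, limma adjusted p = 0.010). That call was lost without Cox10-/- replicate 1 (0.48) and without wild-type replicate 3 (0.36). Sult1e1, the estrogen sulfotransferase, fell by 1.30 on the log2 scale (SE 0.11) at its highest, distal region. That region bears the name Sult1e1, but the nearest RefSeq start of these families is that of Sult1d1, 4018 bases away. Its call relative to the median region (-0.25) was lost without Cox10-/- replicate 3 (-0.14), wild-type replicate 1 (-0.23) or wild-type replicate 3 (-0.21). The other Sult1e1 regions called lower on that scale were at -0.70 and -0.37.

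Sult2 genes had the 3 deepest promoter losses among the 66 promoter regions, and also the largest gain among all 164 regions. These enzymes sulfate steroids and bile acids. Sult2a8, a bile acid sulfotransferase of mouse liver, held 54.4, 53.3 and 43.9 normalised reads at its main promoter region (chromosome 7, 14438865 to 14439668) in Cox10-/- libraries, against 238, 242 and 216 in wild-type libraries (log2 difference -2.18, SE 0.13, limma adjusted p = 1.1e-39). All 5 Sult2a8 regions were lower on both scales, and together they held 109.4 ± 12.8 in Cox10-/- and 475.9 ± 47.8 in wild-type (SD, n = 3 each).

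Sult2a1 and Sult2a2 had few reads in Cox10-/- libraries. Sult2a2, with its region from 13733607 to 13733816 on chromosome 7, held 4.25, 2.42 and 1.52 normalised reads in Cox10-/-, against 39.9, 47.9 and 44.7 in wild-type, from 10 and 100 reads in all. One Sult2a1 region, from 13836999 to 13837239, held 6.80, 4.04 and 2.27 in Cox10-/-, against 50.6, 58.9 and 43.5 in wild-type, from 16 and 115 reads. The other, from 13836711 to 13836900, rested on 1, 1 and 4 reads in Cox10-/- and 26, 21 and 39 in wild-type. Their log2 differences were -3.66 (SE 0.43), -3.35 (SE 0.37) and -3.99 (SE 0.53), and all were lower on both scales. At such counts the size of the difference depends on the pseudocount, and that of the last region was -4.34 with a pseudocount of 0.5 and -2.69 with 5. Sult2a genes are close copies, so their reads may be split uncertainly.

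Sult2b1, the cholesterol sulfotransferase, had 1 region, a distal one on chromosome 7 from 45770726 to 45771245, 11114 bases from its start. It held 58.6, 55.7 and 60.6 normalised reads in Cox10-/- libraries, against 39.9, 16.4 and 16.6 in wild-type libraries. All Cox10-/- libraries lay above all wild-type libraries (log2 difference 1.35, SE 0.22, limma adjusted p = 1.0e-08), and the difference relative to the median region was 2.40. This was the largest positive difference among the 164 regions, and no Sult2b1 promoter region was among them.

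Genes that supply, partner or follow conjugation were counted at 1 promoter region each, over lists written with earlier results of these data known. Across the 9663 genes with a promoter region, on the deposited scale 93.8% were lower and 0.807% higher, and 15.4% were lower and 49.2% higher relative to the median region, with a median of 0.23 on that scale. On the deposited scale 10 of 11 measured genes that supply donors and glutathione were lower and 1 higher, and 1 was lower, 8 higher and 2 not called relative to the median region, with a median of 0.39. Gss, glutathione synthetase, held 43.9 ± 3.01 normalised reads in Cox10-/- and 28.7 ± 2.99 in wild-type (SD, n = 3 each; log2 difference 0.60). Gsr, glutathione reductase, held 265 ± 28.9 in Cox10-/- and 375 ± 20.1 in wild-type, which was 0.55 above the median region.

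Papss2 was the exception among the donor genes. It makes PAPS, the sulfate donor of the Sult enzymes, and held 25.6 ± 3.10 normalised reads in Cox10-/- and 122 ± 9.62 in wild-type (SD, n = 3 each; log2 difference -2.21, and -1.16 relative to the median region).

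Other conjugating enzymes, which add methyl, acetyl or amino acid groups, were lower in 10 of 10 measured genes on the deposited scale and in 9 relative to the median region, with a median of -0.45 there. Acsm5, an acyl-CoA synthetase of the amino acid conjugation route, held 181 ± 11.4 in Cox10-/- and 581 ± 32.7 in wild-type (SD, n = 3 each). Nnmt, nicotinamide N-methyltransferase, held 86.5 ± 8.36 in Cox10-/- and 327 ± 21.3 in wild-type. Their log2 differences were -1.68 and -1.91.

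Of 8 measured partner enzymes, which prepare or reduce substrates, on the deposited scale 7 were lower and 1 was higher, and 2 were lower, 4 higher and 2 not called relative to the median region. Nqo1, a quinone reductase, held 102 ± 10.3 in Cox10-/- and 70.6 ± 10.8 in wild-type (SD, n = 3 each; log2 difference 0.53). Ephx1, the microsomal epoxide hydrolase, fell by 0.70 on the log2 scale but lay 0.35 above the median region, while Akr7a5, an aldehyde reductase, fell by 1.79 and Cyb5a, cytochrome b5, by 1.27, both below the median region.

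Of 8 measured transporters that export conjugates or take up organic anions, 6 were lower and 2 not called on the deposited scale, and 5 were lower and 3 higher relative to the median region. Abcc3, an exporter to blood, held 185.9 ± 6.69 in Cox10-/- and 194 ± 3.92 in wild-type (SD, n = 3 each), and at a log2 difference of -0.06 was not called on the deposited scale. Slco1b2, an uptake transporter of sinusoidal membranes, held 177 ± 3.16 in Cox10-/- and 619 ± 11.0 in wild-type (log2 difference -1.80). Slco2b1 fell by 1.94 and Abcg2 by 0.61 on the log2 scale.

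Of 10 measured genes that reverse conjugation or degrade glutathione conjugates, 9 were lower and 1 not called on the deposited scale, and 5 were lower, 4 higher and 1 not called relative to the median region. Acy1, an aminoacylase, held 50.8 ± 5.53 in Cox10-/- and 258 ± 12.9 in wild-type (SD, n = 3 each), and Anpep, an aminopeptidase, held 45.9 ± 10.0 in Cox10-/- and 236 ± 15.5 in wild-type. Chac1, which cleaves glutathione, was not called on the deposited scale (log2 difference -0.25), and Arsa, a lysosomal sulfatase, fell by 0.47. Both were higher relative to the median region.

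All 17 measured regulators of phase II genes were lower on the deposited scale, and 8 were lower, 6 higher and 3 not called relative to the median region. Nr1i3, the constitutive androstane receptor CAR, held 147 ± 4.24 in Cox10-/- and 736 ± 28.6 in wild-type (SD, n = 3 each; log2 difference -2.31, and -1.26 relative to the median region). Rxra, its dimer partner, held 845 ± 56.9 in Cox10-/- and 2335 ± 47.5 in wild-type (log2 difference -1.47). Nfe2l2, which encodes NRF2, held 389 ± 23.9 in Cox10-/- and 548 ± 47.0 in wild-type, and Mafk, its small MAF partner, 465.5 ± 13.3 in Cox10-/- and 628 ± 27.4 in wild-type. Both fell on the deposited scale, by 0.49 and 0.43, and lay 0.56 and 0.62 above the median region.

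In the authors' deposited table, 145 of the 164 regions were lower, 4 higher and 15 not called at its adjusted p under 0.05, against 84.8% lower and 3.58% higher over all regions there.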

How the data were processed

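H3K27ac libraries of Cox10-/- (3) and wild-type (3) mouse liver were compared, and 6 inputs were not used. The table holds a normalised signal per region that the authors deposited, with the build mm10. Per the submitters' processing notes the tools were BWA 0.7.5, MACS and deepTools 3.5.0, whose roles are not listed there. Multiplying a library's values by 1 factor gave whole reads (100% of values within 0.01 reads). Size factors were 1.18, 1.24 and 1.32 in Cox10-/- and 0.752, 0.730 and 0.782 in wild-type. Spike-in chromatin was added before the precipitation per the labels' protocols. The sources used here do not say how the factors were derived, and they set the general shift between the groups. The authors also deposited a log2 fold change with its standard error, a test statistic (a score), a p-value and an adjusted p-value for each region, used here only for their own call. Of 36446 rows, 59 repeats were dropped. Chromosome 16 was not analysed here. Whether deposited starts count from 0 or 1 is not stated.

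The test was limma 3.58.1 under R 4.3.3, with a variance trend and neither filter nor block, applied to log2(value + 1). This was done on the deposited values and after subtracting each library's median log2 value, over all 36387 regions. A pseudocount understates changes of low regions. Precision is limited by the reads per region, which the reads in regions per library set. The named genes were chosen by rule: all Mgst, the 4 of highest mean signal and the 4 lowest and 4 highest relative to the median region in each other family, other members by their representative region, the 5 lowest and 5 highest called regions, and up to 2 genes per direction of each list. The members, lists and tests were chosen with earlier results of these data known. The test was run on simulated data first. Replicate numbers did not pair the libraries. Alternatives were pseudocounts of 0.5 and 5, a mean of at least 20, count models on the recovered reads (edgeR 4.0.16, DESeq2 1.42.0), scaling by total reads, a wider promoter of 3 kb, an adjusted p under 0.01, a replicate block and leaving out each library.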

Additional observations from a re-analysis of the deposited data

How the results depend on the processing

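Across the alternatives run, the counts of called members and the family medians kept their direction, except the Gst and Mgst medians relative to the median region, which lie near 0 on either side. With promoters taken within 3 kb, promoter regions called higher numbered 1 on the deposited scale and 22 relative to the median region (0 and 12 within 1 kb), since more regions are counted. With a pseudocount of 5 the deposited medians were -1.34 for Ugt and -1.36 for Sult, beside -0.98 for all regions, and relative to the median region -0.34 for Ugt and -0.36 for Sult. Scaling by total reads in regions gave -0.51 for Ugt. Leaving out 1 library, the deposited median of Ugt ran from -1.55 to -1.36 and that of Sult from -1.56 to -1.42, and relative to the median region they ran from -0.47 to -0.36 and from -0.49 to -0.38. Over the same sets, members lower numbered 146 to 150 on the deposited scale and 63 to 65 relative to the median region, and members higher 4 to 7 and 32 to 35. DESeq2 with its own size factors called 27 higher relative to the median region, against 38. Sign changes relative to the median region were limited to values near 0 that were not called. Gstp1 at its main promoter region was -0.030 by total reads, -0.021 with a pseudocount of 5 and -0.024 to 0.076 without single libraries. Mgst1 was -0.026 by total reads, -0.035 with a pseudocount of 5 and -0.022 to 0.059 without single libraries. Ugt2b35 ran from -0.15 to 0.039 without single libraries. Calls of Ugt2b34, Ugt2b5, Sult1e1 and Gstk1 relative to the median region were lost with DESeq2, as was the deposited-scale call of the weak Sult1d1 region (0.64). The cause of these changes was not tested. A replicate block left 150 members lower and 6 higher on the deposited scale and 71 lower and 38 higher relative to the median region. Libraries with the same number did not deviate together (correlations -0.0009, 0.0074 and 0.0054), so the numbers do not pair them. Depth limits the low regions of Sult2a1 and Sult2a2, where fold sizes rest on few reads.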
